A study of Mus musculus with 9 samples.

Results

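At E11.5 the prominences that make the upper lip meet at the lambdoidal junction, and the genes described here are those whose level in this tissue at E11.5 stood apart from both the day before and the day after. A gene was a peak where its 3 E11.5 libraries all lay above the other 6 libraries, and a dip where all 3 lay below them, on normalised read counts (CPM, each count as a share of its library's total, times 1000000) scaled by the trimmed mean of M values (TMM). Of 16375 genes tested, 295 were peaks (1.8%) and 315 were dips (1.92%), 610 in all (3.73%). The test was a contrast of E11.5 with the average of E10.5 and E12.5, fitted for every gene with weights of 1, -0.5 and -0.5. A gene is called here where edgeR's quasi-likelihood test gave a Benjamini-Hochberg adjusted p of at most 0.05 over all genes tested, and 49 peaks and 65 dips were called.

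RNA-seq was run on lambdoidal junction tissue of C57BL/6J mouse embryos with 3 libraries at each of E10.5, E11.5 and E12.5, where the number gives the embryonic day. The sources used here name no allele or treatment in any group, and the groups are told apart by embryonic day alone. Each library was made from tissue pooled over many embryos, so the spread between the 3 libraries of a stage is a spread between pools, and a change in the share of a cell type in the dissected tissue cannot be told apart from a change of RNA level per cell. At the lambdoidal junction the maxillary prominence meets the medial and lateral prominences of the nose. Its surface ectoderm forms an epithelial seam that is later lost, and the mesenchyme beneath it becomes continuous. Ligands from the ectoderm, among them Shh, Wnt and Fgf family members, are known to pattern this mesenchyme, which also receives blood vessels and nerve fibres.

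Depth was 16581009–20836804 counts per library, and the 3 E11.5 libraries (18280441–20836804) were deeper than the other 6 (16581009–17919664). E10.5 replicate 3 stood apart from its group: the SD of the log2 difference to replicates 1 and 2 was 0.711 and 0.703 over genes, compared with 0.393 between those 2 libraries. E11.5 had the closest replicates, at 0.373–0.417, and E12.5 lay between, at 0.494–0.591. In E10.5 replicate 3 the summed level of 17 endothelial markers was 191 CPM, while the other 8 libraries held 522–603 CPM. The same library held 11000 CPM of heat shock genes, and the other 8 held 4240–6720 CPM. Its mitochondrially encoded genes summed to 27100 CPM, and those of the other 8 to 13500–22800 CPM. Msx2 (45.9–80.4 CPM) and Tbx22 (4.27–27.5 CPM), genes of facial mesenchyme, were present in all 9 libraries, and of 39 Hox genes, which mark the trunk and hindbrain, 2 passed the filter on low counts. The biological coefficient of variation of the fit was 0.186.

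The contrast called 194 genes, 1.18% of those tested, with 102 higher (0.623%) and 92 lower (0.562%) at E11.5. Of these, 49 were called peaks (0.299% of all genes tested) and 65 were called dips (0.397%). The other 80 overlapped a neighbouring stage in at least 1 library, 53 of them higher and 27 lower than the average of the neighbours. Among the called peaks the log2 difference from the neighbours' average ran from 0.49 to 4.48, with a median of 1.05, and 28 reached 1. Called dips were at -5.68 to -0.60 with a median of -1.45, and 47 were at -1 or below. The median over all genes tested was -0.0063. A stage lay at the limit of detection, 3 counts or fewer in each of its libraries, in 5 called peaks and 3 called dips, and their fitted differences depend on the prior count.

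The 246 peaks and 250 dips that were separated but not called had smaller differences, with medians of 0.41 and -0.60. Just inside the threshold lay Rassf3 (adjusted p = 0.0478) among peaks and Tmem121 (adjusted p = 0.0497) among dips, and just outside lay Cemip and Onecut2 (both adjusted p = 0.0507). A stricter reading asked that E11.5 pass against each neighbour on its own. By that rule 27 genes were higher than both (0.165% of those tested) and 45 were lower than both (0.275%), of which 26 and 35 were also called peaks and dips. Of the other called peaks, 17 passed against E10.5 alone and 6 against E12.5 alone, and of the other called dips 20 and 10 did. The 2 comparisons share the E11.5 libraries.

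**Figure D1:**
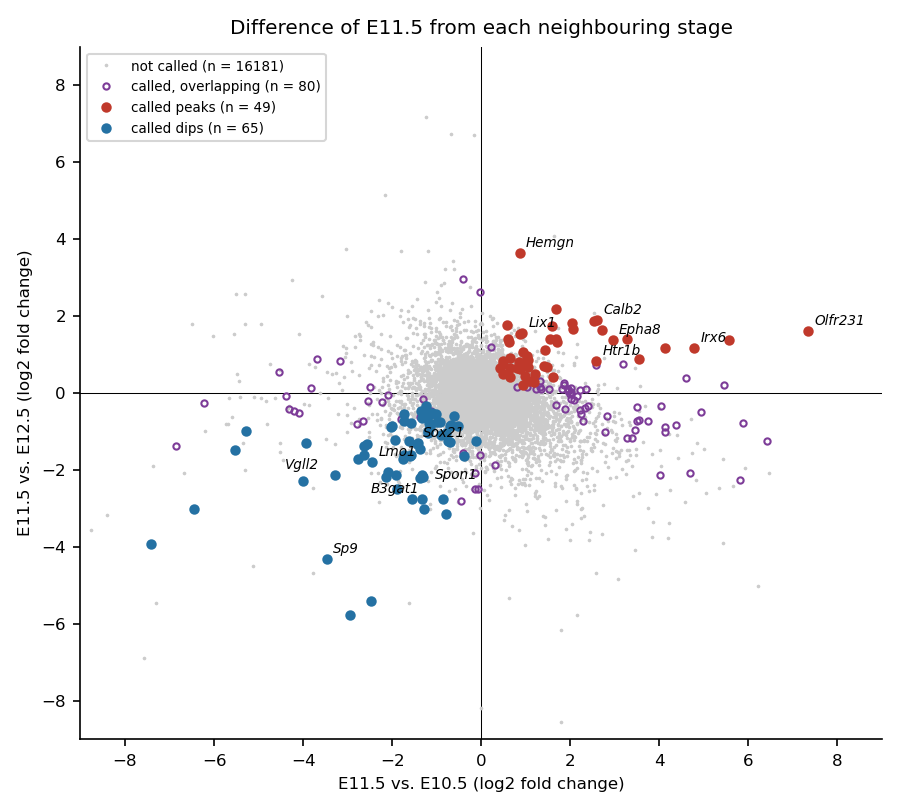
Log2 fold change of E11.5 vs. E10.5 (horizontal) and E11.5 vs. E12.5 (vertical) for each of the 16375 genes tested. Filled red points are the 49 called peaks, filled blue points the 65 called dips and open points the 80 called genes whose libraries overlapped. The called peaks lie at the upper right and the called dips at the lower left, as the rule that chose them requires, while most open points lie near the horizontal line or below it on the right.

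The stage that came closest to E11.5 varied among members. Of the called peaks, 35 lay nearer their E12.5 level and 14 nearer their E10.5 level, measured by the smaller of the 2 log2 differences. Called dips divided as 39 and 26. E12.5 vs. E10.5, whose weights are orthogonal to those of the contrast, called 33.2% of all genes tested. It called 15 of the 49 peaks higher and 5 lower at E12.5, and left 29 uncalled. Of the 65 dips it called 10 higher and 23 lower at E12.5, and left 32 uncalled. Peaks included genes such as Irx6 that were nearly silent at E10.5 and partly on at E12.5, and dips included genes such as Cp and Aldh1a1 with a high level at E10.5 and a small return at E12.5.

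**Figure D2:**
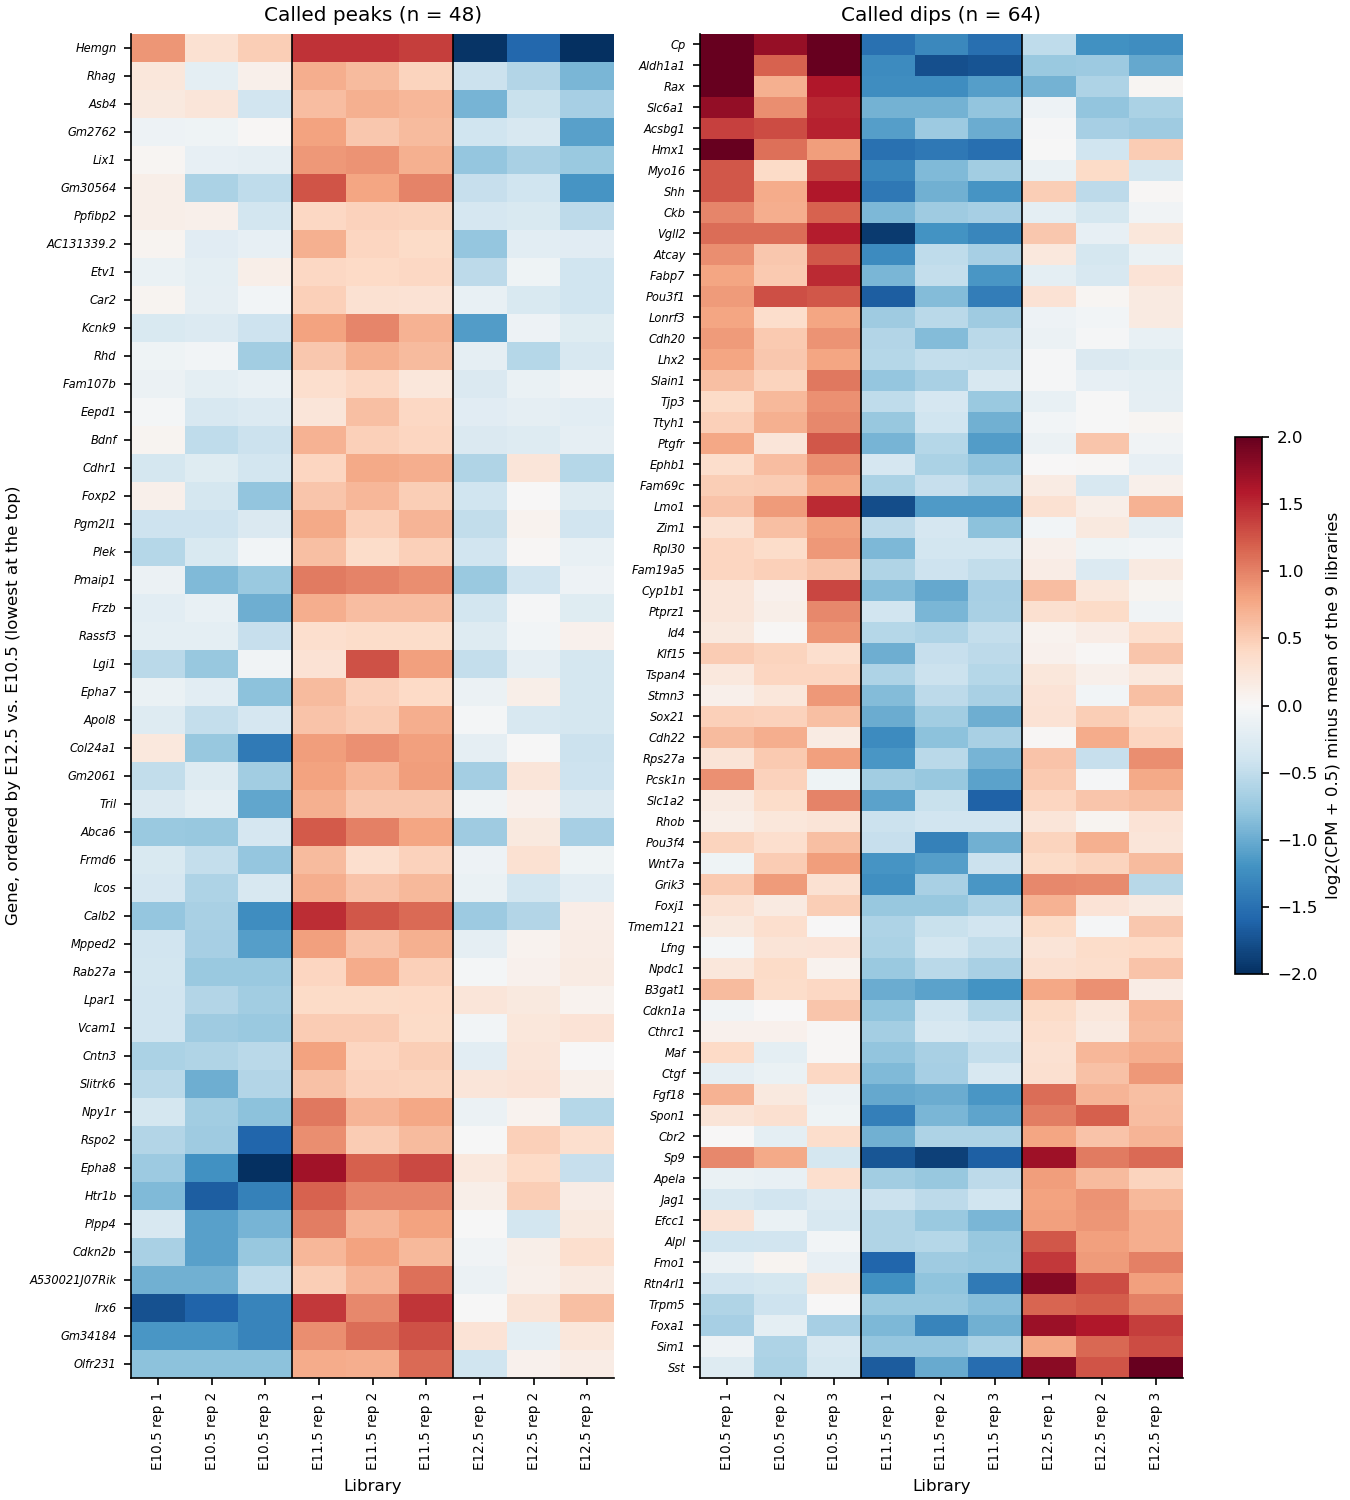
Level of 48 called peaks (left) and 64 called dips (right) in the 9 libraries as log2(CPM + 0.5) minus the gene's mean over libraries, with colours cut at -2 and 2. Genes are ordered by E12.5 vs. E10.5, lowest at the top, so the shoulder of the pattern moves from E10.5 at the top to E12.5 at the bottom, from Hemgn to Olfr231 among peaks and from Cp to Sst among dips.

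Lix1, Mpped2 and Pgm2l1 were the more abundant of the leading peaks. Lix1 (ENSMUSG00000047786, chr17:17402672-17459387, plus strand, in GRCm38 as deposited) was at 113, 98.3 and 97.2 CPM at E10.5, 200, 204 and 180 CPM at E11.5, and 64.3, 69.7 and 65.3 CPM at E12.5. All 3 E11.5 libraries stood well clear of the other 6, and E12.5 was the lowest stage. Its log2 difference from the neighbours was 1.24 ± 0.10, adjusted p = 0.000203. Mpped2, which encodes a metallophosphoesterase, was at 96.1, 79.5 and 58.6 CPM at E10.5, 224, 188 and 208 CPM at E11.5, and 111, 132 and 139 CPM at E12.5. The E10.5 libraries were lowest, the E12.5 libraries between, and the log2 difference was 1.05 ± 0.15, adjusted p = 0.00527. Pgm2l1, an enzyme that makes glucose 1,6-bisphosphate, stood at 63.6 ± 3.48 CPM at E10.5, 129 ± 12.8 CPM at E11.5 and 69.5 ± 15 CPM at E12.5 (SD, n = 3), and E12.5 vs. E10.5 was not called (adjusted p = 0.574). Its contrast was 0.95 ± 0.13, adjusted p = 0.00527. Asb4, an ankyrin repeat protein with a SOCS box, was at 77.6 ± 17.4 CPM at E10.5, 120 ± 4.02 CPM at E11.5 and 47.4 ± 7.94 CPM at E12.5, with a log2 difference of 0.98 ± 0.15, adjusted p = 0.00938.

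**Figure D3:**
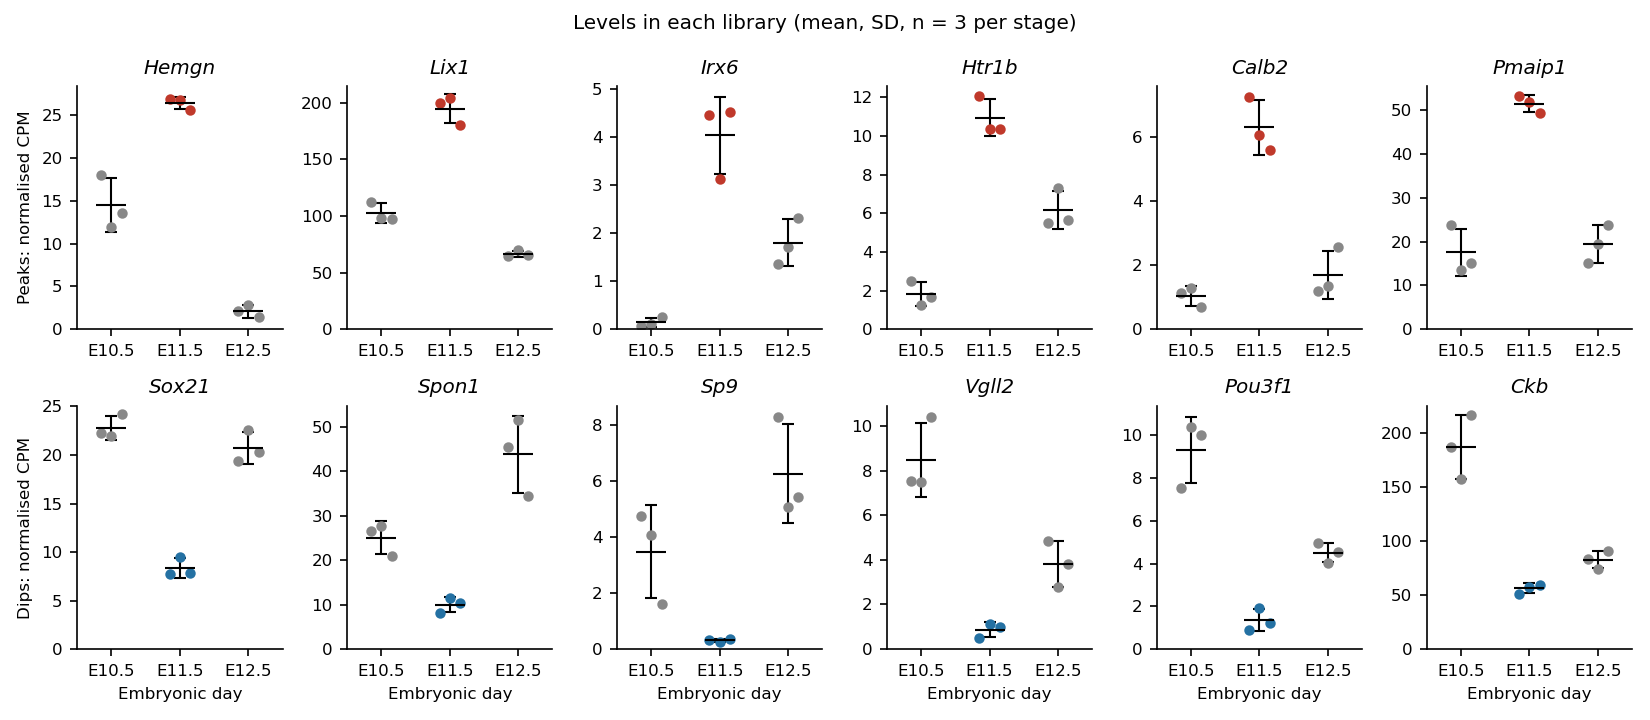
Normalised CPM in each library at the 3 stages for the 6 protein-coding peaks (upper row) and 6 dips (lower row) with the smallest p, with E11.5 coloured. Bars give the mean and SD of 3 libraries. Axes start at 0 and differ between genes. In each panel the 3 coloured points lie outside the range of the 6 grey points, as the rule that chose these genes requires.

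Calb2, Htr1b, Epha8, Epha7 and Slitrk6 encode a calcium-binding protein and membrane proteins. No peak was among the 17 neuron markers tested, beside 1.8% of all genes tested, and the median of these markers was -0.2. Calb2 (calretinin, a calcium buffer) had the largest gap to its nearer neighbour of all called protein-coding peaks, and was at 1.13, 1.28 and 0.681 CPM at E10.5, 7.26, 6.06 and 5.58 CPM at E11.5, and 1.18, 1.35 and 2.56 CPM at E12.5. The highest of the neighbouring libraries, E12.5 replicate 3, still lay far below the lowest E11.5 library. Its log2 difference was 2.25 ± 0.27, adjusted p = 0.00198. Htr1b, a serotonin receptor, was at 2.5, 1.28 and 1.67 CPM at E10.5, 12.1, 10.4 and 10.4 CPM at E11.5, and 5.52, 7.33 and 5.67 CPM at E12.5, with a difference of 1.71 ± 0.20, adjusted p = 0.00198. It was low at E10.5 and partly retained at E12.5, and E11.5 vs. E12.5 alone missed the threshold (adjusted p = 0.0527). Epha8, an ephrin receptor, was at 3.51, 2.38 and 0.743 CPM at E10.5, 20.8, 14.7 and 16.2 CPM at E11.5, and 7.16, 8.3 and 4.35 CPM at E12.5, a log2 difference of 2.17 ± 0.31, adjusted p = 0.00551. E10.5 replicate 3 was the lowest library. Its relative Epha7 was at 66.7 ± 16.1 CPM at E10.5, 122 ± 10.3 CPM at E11.5 and 79.5 ± 13 CPM at E12.5 (0.74 ± 0.16, adjusted p = 0.0435), and Slitrk6, a transmembrane protein with leucine-rich repeats, at 35.2 ± 5.6 CPM at E10.5, 80.6 ± 4.23 CPM at E11.5 and 65.9 ± 4.27 CPM at E12.5 (0.74 ± 0.12, adjusted p = 0.0143). Neither passed against E12.5 alone (adjusted p = 0.0681 and 0.24).

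Of the 8 peaks with the largest gap, 5 were at low levels throughout. Lgi1, which encodes a secreted protein with leucine-rich repeats, was at 0.356, 0.232 and 0.681 CPM at E10.5, 1.02, 2.5 and 1.69 CPM at E11.5, and 0.394, 0.593 and 0.477 CPM at E12.5 (1.93 ± 0.39, adjusted p = 0.0346). Npy1r, a neuropeptide Y receptor, was at 0.356, 0.174 and 0.124 CPM at E10.5, 1.78, 1.25 and 1.37 CPM at E11.5, and 0.507, 0.647 and 0.238 CPM at E12.5 (2.17 ± 0.39, adjusted p = 0.0237). The spread within E11.5 was wide for Lgi1. Kcnk9, a potassium leak channel, was at 0.755 ± 0.0673 CPM at E10.5, 2.3 ± 0.274 CPM at E11.5 and 0.677 ± 0.397 CPM at E12.5 (1.68 ± 0.35, adjusted p = 0.0378), and Abca6, a lipid transporter of the ABC family, at 0.901 ± 0.239 CPM at E10.5, 3.79 ± 0.654 CPM at E11.5 and 1.19 ± 0.652 CPM at E12.5 (1.86 ± 0.30, adjusted p = 0.0143). In none of these 4 was E12.5 vs. E10.5 called. The olfactory receptor Olfr231 had no count in any E10.5 library, 18, 20 and 27 counts at E11.5 and 3, 8 and 8 at E12.5, so that E11.5 was at least 6.23-fold higher than a floor of 3 counts per library at E10.5. It passed the contrast (adjusted p = 0.0101), but not against E12.5 alone (adjusted p = 0.0784).

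The promoters of Lgi1 and Npy1r are printed because they are the peaks with the largest gap that had an entry among the RefSeq promoters (GRCm38.p6), that of Rhd as 1 of the erythroid peaks described next, picked after its values were seen, and that of Sp9 because it is the dip with the largest gap. Each runs from 250 bases before to 50 after the RefSeq start, 5′ to 3′ on the plus strand, at chr19:38264437-38264736 for Lgi1, chr8:66697172-66697471 for Npy1r, chr4:134864286-134864585 for Rhd and chr2:73271676-73271975 for Sp9. The RefSeq start lies 151, 230, 0 and 1 bases from the deposited start of each gene. Capitals mark a match, on either strand, to the AP-1 motif TGANTCA, the E-box motif CACGTG, the motif AGATAA of GATA factors, the GC box motif GGGCGG or the TATA box motif TATAAA.
Lgi1: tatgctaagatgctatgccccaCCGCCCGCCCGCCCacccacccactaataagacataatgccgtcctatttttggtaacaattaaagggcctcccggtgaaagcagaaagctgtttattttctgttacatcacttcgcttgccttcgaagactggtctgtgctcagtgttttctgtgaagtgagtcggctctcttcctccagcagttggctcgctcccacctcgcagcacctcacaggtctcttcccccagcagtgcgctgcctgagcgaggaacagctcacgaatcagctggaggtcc
Npy1r: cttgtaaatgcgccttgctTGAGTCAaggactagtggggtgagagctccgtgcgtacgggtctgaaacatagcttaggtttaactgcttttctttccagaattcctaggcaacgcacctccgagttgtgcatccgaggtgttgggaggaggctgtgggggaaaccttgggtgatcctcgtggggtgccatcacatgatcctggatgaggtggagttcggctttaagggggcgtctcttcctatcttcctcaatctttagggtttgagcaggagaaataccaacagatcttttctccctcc
Rhd: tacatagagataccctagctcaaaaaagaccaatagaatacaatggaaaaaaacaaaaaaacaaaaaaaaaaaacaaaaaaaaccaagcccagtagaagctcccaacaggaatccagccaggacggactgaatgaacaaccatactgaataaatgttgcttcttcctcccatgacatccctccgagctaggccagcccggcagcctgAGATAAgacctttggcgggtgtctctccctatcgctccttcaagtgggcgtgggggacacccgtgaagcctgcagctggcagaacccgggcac
Sp9: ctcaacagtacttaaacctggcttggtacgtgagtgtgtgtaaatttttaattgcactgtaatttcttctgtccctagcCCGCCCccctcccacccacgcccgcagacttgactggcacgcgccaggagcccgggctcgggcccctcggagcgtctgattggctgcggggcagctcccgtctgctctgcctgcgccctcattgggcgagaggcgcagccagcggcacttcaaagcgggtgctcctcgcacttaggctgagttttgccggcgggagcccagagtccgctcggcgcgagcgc
Lgi1 had overlapping GC boxes that begin at -228, -224 and -220 from the start, read on the minus strand. Npy1r had TGANTCA at -231 and Rhd had AGATAA at -43. The promoters of Rhag and Hemgn, other erythroid peaks, were also searched after their values were seen. That of Rhag held none of these motifs, and that of Hemgn had AGATAA at 28 and TATAAA at -80. The RefSeq start of Hemgn lies 9323 bases from its deposited start. Sp9 had a GC box on the minus strand at -171. A match is a description of the letters in this window and is no evidence of binding.

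Erythroid genes formed the peak group with the most called members. Primitive erythroid cells from the yolk sac circulate at these stages and carry embryonic globins. Of 21 erythroid genes tested, 6 had all E11.5 libraries above the other 6 and 4 were called peaks, none was called lower, and 19 were higher at E11.5 than the average of the neighbours (18 with upper quartile normalization, 21 with the GC or length trend removed). Their median log2 difference was 0.64, beside -0.0063 over all genes tested, of which 0.623% were called higher. Hemgn (ENSMUSG00000028332, chr4:46393989-46413506, minus strand), a nuclear protein of haematopoietic cells, had the smallest p of all peaks. It was at 17.9, 11.9 and 13.6 CPM at E10.5, 26.9, 26.7 and 25.6 CPM at E11.5, and 2.08, 2.86 and 1.37 CPM at E12.5. E11.5 lay above E10.5 and E12.5 was nearly without it, and the log2 difference was 2.25 ± 0.19, adjusted p = 0.000203. Rhd and Rhag encode membrane proteins of the Rh complex. Rhd was at 5.23, 5.4 and 3.28 CPM at E10.5, 8.34, 9.52 and 9.01 CPM at E11.5, and 4.9, 3.61 and 4.41 CPM at E12.5 (1.00 ± 0.19, adjusted p = 0.0311), and Rhag was at 4.93, 3.54 and 4.46 CPM at E10.5, 7.21, 6.73 and 5.79 CPM at E11.5, and 2.93, 2.59 and 1.97 CPM at E12.5 (1.00 ± 0.20, adjusted p = 0.0328). For Rhd, E12.5 vs. E10.5 was not called (adjusted p = 0.757), while Rhag was lower at E12.5 (adjusted p = 0.0257).

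Slc4a1, the band 3 anion exchanger, and Alas2, the erythroid enzyme that begins haem synthesis, were separated but not called. Slc4a1 stood at 77.7 ± 30.9 CPM at E10.5, 123 ± 5.56 CPM at E11.5 and 50.6 ± 20 CPM at E12.5 (adjusted p = 0.0879) and Alas2 at 29 ± 4.65 CPM at E10.5, 38.6 ± 2.76 CPM at E11.5 and 24.5 ± 3.2 CPM at E12.5 (adjusted p = 0.0923). The embryonic globin Hba-x was separated too, at 1268, 1003 and 719 CPM at E10.5, 1435, 1411 and 1470 CPM at E11.5, and 827, 700 and 889 CPM at E12.5, with an adjusted p of 0.0632. The E11.5 libraries of Hba-x agreed closely, whereas E10.5 spread from 719 to 1268 CPM. Of the 3 embryonic globins, all were higher at E11.5 than the average of the neighbours and none was called. The adult globins of the list followed the stages in order instead: Hba-a2 was at 19.5 ± 11.8, 38.3 ± 6.31 and 73.8 ± 19.4 CPM from E10.5 to E12.5, and its contrast was 0.01 (adjusted p = 0.992). The summed level of the erythroid list, which these globins dominate, was 810, 611 and 360 CPM at E10.5, 923, 905 and 957 CPM at E11.5 and 1130, 1030 and 1270 CPM at E12.5. E10.5 replicate 3 was the lowest in this sum. Without that library 8 of the 21 genes were called higher and 9 were separated, and their median was 0.53, and with the GC trend removed 7 were called. Without any 1 of the E11.5 libraries or E12.5 replicate 1 the number called was 1, and without E12.5 replicate 3 it was 2. Whichever library was omitted, at least 18 of the 21 were higher at E11.5. Endothelial and macrophage markers had no called or separated member in 17 and 20 genes, and their medians were 0.0043 and -0.056. Over all genes tested 1.18% were called and 3.73% were separated. The part of the amount of blood in the dissected pieces was not tested.

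**Figure D4:**
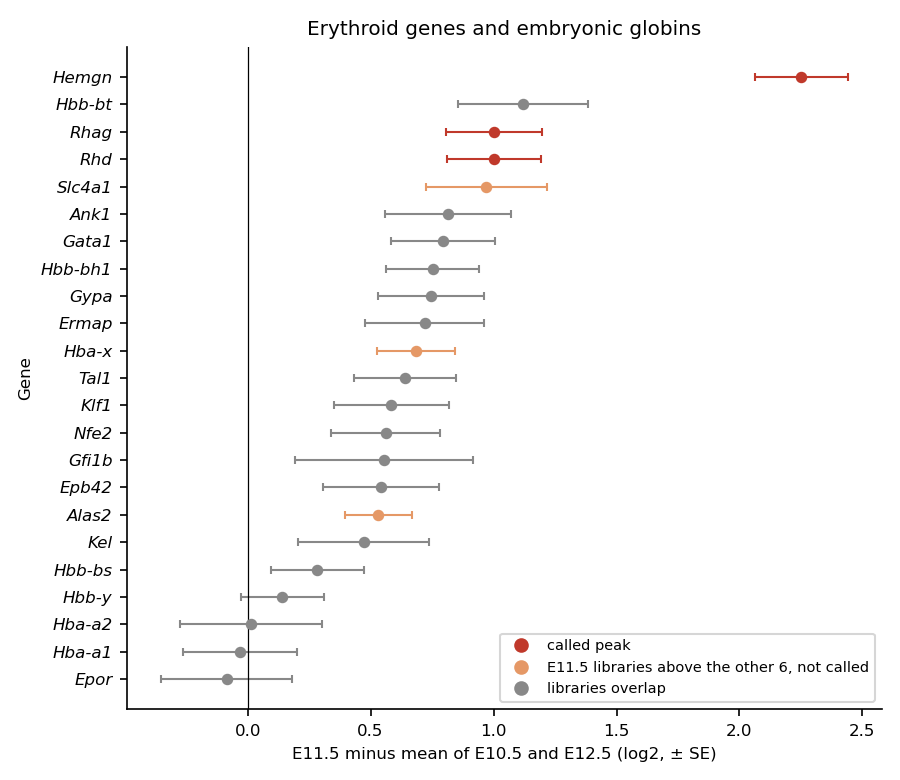
Log2 difference of E11.5 from the average of E10.5 and E12.5, with its SE, for 20 erythroid genes and 3 embryonic globins. Red points are the called peaks Hemgn, Rhag and Rhd, orange points are separated but not called, and grey points overlap. 21 of the 23 points lie right of 0, and Hemgn stands farthest from it.

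Peaks also included secreted signals and regulators of growth. Rspo2, a secreted enhancer of Wnt signalling and a gene known for its part in lip formation, was at 33.9, 31.1 and 16.7 CPM at E10.5, 98.4, 73.4 and 79.6 CPM at E11.5, and 51.1, 71.5 and 65.1 CPM at E12.5. Its E10.5 libraries were lowest, its log2 difference was 1.02 ± 0.20, adjusted p = 0.0303, and E11.5 vs. E12.5 alone gave 0.42 (adjusted p = 0.289). Frzb, a secreted Wnt antagonist, was at 78.1, 81.5 and 45.8 CPM at E10.5, 149, 138 and 139 CPM at E11.5, and 69.5, 88.5 and 76.4 CPM at E12.5 (0.96 ± 0.16, adjusted p = 0.018). E12.5 vs. E10.5 was not called (log2 = 0.19, adjusted p = 0.487). Bdnf, a neurotrophin, was at 8.01 ± 1.88 CPM at E10.5, 14.3 ± 1.49 CPM at E11.5 and 8.15 ± 0.352 CPM at E12.5 (0.83 ± 0.16, adjusted p = 0.0334). The Wnt ligands themselves held no peak: of 16 tested none was above the other stages (1.8% of all genes tested were). Of the 16, 1, Wnt7a, was a called dip, beside 0.397% of all genes tested. Frzb and Bdnf were chosen for mention after their values were seen.

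Pmaip1, which encodes the pro-apoptotic BH3-only protein Noxa, was at 23.8, 13.6 and 15.2 CPM at E10.5, 53.3, 51.8 and 49.5 CPM at E11.5, and 15.2, 19.5 and 23.9 CPM at E12.5. The E11.5 libraries lay close together and far above every neighbouring library, and the log2 difference was 1.48 ± 0.18, adjusted p = 0.00223. E12.5 vs. E10.5 was not called (adjusted p = 0.619). Pmaip1 is a target of p53. Of 19 p53 targets tested, itself included, 1 was a called peak and 1 a called dip, beside 0.299% and 0.397% of all genes tested. The median of these targets was -0.0082. The called dip was Cdkn1a, an inhibitor of cyclin-dependent kinases, at 16.8, 17.7 and 26.1 CPM at E10.5, 9.9, 13.2 and 11.6 CPM at E11.5, and 23.1, 20.8 and 28.2 CPM at E12.5 (-0.92 ± 0.18, adjusted p = 0.0346). Of 26 genes of cell death, none was called, beside 1.18% of all genes tested. Another inhibitor of cyclin-dependent kinases, Cdkn2b, was a peak with few counts, 3, 0 and 2 at E10.5, 22, 28 and 22 at E11.5, and 9, 12 and 14 at E12.5 (adjusted p = 0.0332), where E10.5 lay at the limit of detection.

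Of the 49 called peaks, 3 (6.12%) were transcription factors in the deposited annotation, near the 6.9% that it marks among the genes tested. Irx6, an Iroquois homeobox gene, was nearly undetected at E10.5, at 0.0594, 0.116 and 0.248 CPM at E10.5, 4.47, 3.13 and 4.53 CPM at E11.5, and 1.35, 1.73 and 2.33 CPM at E12.5. Its log2 difference was 2.97 ± 0.32, adjusted p = 0.00116, and it stayed above its E10.5 level at E12.5 (E12.5 vs. E10.5 adjusted p = 0.000137). The forkhead gene Foxp2 was at 63.4, 46 and 33.8 CPM at E10.5, 86.7, 93.6 and 83.2 CPM at E11.5, and 44.9, 59.2 and 49.3 CPM at E12.5 (0.83 ± 0.17, adjusted p = 0.0346), and the ETS gene Etv1 at 26.4 ± 3.14 CPM at E10.5, 36.9 ± 0.35 CPM at E11.5 and 22 ± 3.62 CPM at E12.5 (0.61 ± 0.13, adjusted p = 0.047). For neither was E12.5 vs. E10.5 called (adjusted p = 0.739 and 0.225). Of 39 collagen genes tested, 2 were separated above and 2 were called higher, beside 1.8% and 0.623% of all genes tested. The 1 called peak among them was the fibrillar Col24a1, at 5.39 ± 3.38 CPM at E10.5, 14.6 ± 0.498 CPM at E11.5 and 6.73 ± 1.02 CPM at E12.5 (1.27 ± 0.28, adjusted p = 0.0477). Its call was lost in 11 of 22 alternative fits, 7 of them with a library left out. The E10.5 libraries of Col24a1 spread from 2.6 to 9.15 CPM, with replicate 3 lowest.

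Among the dips 15 of 65 (23.1%) were transcription factors, and the difference from the peaks was not tested. They comprised 4 homeobox, 3 zinc finger, 2 POU, 2 forkhead and 2 bHLH genes, with 1 HMG and 1 bZIP gene. Sox21, an HMG repressor of the SoxB group (ENSMUSG00000061517, chr14:118233232-118237030, minus strand), had the smallest p of all dips, at 22.3, 21.9 and 24.2 CPM at E10.5, 7.69, 9.52 and 7.8 CPM at E11.5, and 19.4, 22.5 and 20.3 CPM at E12.5. The E11.5 libraries lay far below either neighbour, E12.5 vs. E10.5 was not called (log2 = -0.14, adjusted p = 0.527), and the log2 difference was -1.38 ± 0.14, adjusted p = 0.00116. Sp9, a zinc finger gene known from limb ectoderm, was at 4.75, 4.06 and 1.61 CPM at E10.5, 0.323, 0.24 and 0.369 CPM at E11.5, and 8.28, 5.07 and 5.43 CPM at E12.5 (-3.89 ± 0.43, adjusted p = 0.00164). Every neighbouring library lay above the E11.5 libraries by a wide margin, E10.5 replicate 3 the least. The POU gene Pou3f1 was at 7.55, 10.4 and 10 CPM at E10.5, 0.915, 1.92 and 1.21 CPM at E11.5, and 4.96, 4.04 and 4.53 CPM at E12.5 (-2.25 ± 0.26, adjusted p = 0.00186), and its relative on the X chromosome, Pou3f4, at 4.95 ± 0.526 CPM at E10.5, 1.65 ± 0.663 CPM at E11.5 and 5.02 ± 0.911 CPM at E12.5 (-1.60 ± 0.27, adjusted p = 0.0177).

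Vgll2, a cofactor of TEAD factors, was at 7.55, 7.49 and 10.4 CPM at E10.5, 0.484, 1.11 and 1 CPM at E11.5, and 4.85, 2.8 and 3.82 CPM at E12.5 (-2.70 ± 0.31, adjusted p = 0.00175). E10.5 was the highest stage, and E12.5 recovered in part. Lmo1, a LIM-only transcriptional partner, was at 18.7, 23 and 35.9 CPM at E10.5, 3.28, 5.43 and 5.43 CPM at E11.5, and 15.4, 13.6 and 20.5 CPM at E12.5 (-2.13 ± 0.26, adjusted p = 0.00231). Foxa1, a forkhead pioneer factor of endoderm and other epithelia, was at 1.43, 2.15 and 1.43 CPM at E10.5, 1.13, 0.721 and 1.05 CPM at E11.5, and 9.41, 8.73 and 7.45 CPM at E12.5 (-1.96 ± 0.26, adjusted p = 0.00399). Here the E10.5 level was only just above E11.5 (adjusted p = 0.114 for that pair), and the contrast rested on the level at E12.5. Lhx2, a LIM homeobox gene, showed the opposite order, at 69.5 ± 6.73 CPM at E10.5, 29.6 ± 1.13 CPM at E11.5 and 37.3 ± 3.7 CPM at E12.5 (-0.78 ± 0.12, adjusted p = 0.0109), and did not pass against E12.5 alone (adjusted p = 0.164).

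The called dips included ligands of the pathways that pattern the face. Shh, the hedgehog ligand, was at 23.5, 16.4 and 30.2 CPM at E10.5, 3.23, 4.67 and 3.95 CPM at E11.5, and 13.8, 6.52 and 9.72 CPM at E12.5. The lowest neighbouring library was E12.5 replicate 2, and the log2 difference was -1.95 ± 0.27, adjusted p = 0.00527. Antisense or neighbouring transcripts cover 28.3% of the exon length of Shh in the annotation, and the sources used here do not say whether reads were counted by strand. Fgf18 was at 3.45, 2.26 and 1.73 CPM at E10.5, 0.7, 0.721 and 0.579 CPM at E11.5, and 4.79, 3.4 and 3.16 CPM at E12.5 (-2.19 ± 0.32, adjusted p = 0.00698). It was the 1 called gene of 16 Fgf ligands tested, whose median was -0.0039, beside 1.18% called of all genes tested. Wnt7a was at 2.73, 4.41 and 5.64 CPM at E10.5, 1.02, 1.11 and 2.05 CPM at E11.5, and 4, 4.21 and 4.83 CPM at E12.5 (-1.62 ± 0.31, adjusted p = 0.0296), against a median of -0.056 for the 16 Wnt ligands. For neither was E12.5 vs. E10.5 called (adjusted p = 0.149 and 0.956). Of 22 TGF-beta and BMP ligands none was separated, and 2 were called higher at E11.5 with libraries that overlapped a neighbour, namely Inhba and Gdf6. Over all genes tested 3.73% were separated, 0.623% were called higher and 0.397% were called dips.

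Spon1, a secreted matrix protein that guides axons, had the smallest p among dips after Sox21, at 26.7, 27.7 and 20.9 CPM at E10.5, 8.23, 11.5 and 10.4 CPM at E11.5, and 45.5, 51.6 and 34.4 CPM at E12.5 (-1.72 ± 0.18, adjusted p = 0.00116). Its E12.5 level was above that of E10.5 (adjusted p = 0.00658). Ctgf, a matricellular protein, was at 12 ± 3.01 CPM at E10.5, 7.44 ± 1.59 CPM at E11.5 and 17.9 ± 3.45 CPM at E12.5 (-0.98 ± 0.21, adjusted p = 0.0443). Its call was lost in 10 of 22 alternative fits, 7 of them with a library left out. Ctgf was the 1 called member of 26 immediate early genes tested, beside 1.18% of all genes tested, and the list median was -0.21. In the Notch pathway the ligand Jag1 was at 32.4, 31 and 33.5 CPM at E10.5, 30, 28 and 30.8 CPM at E11.5, and 71.5, 76.2 and 64.1 CPM at E12.5 (-0.69 ± 0.12, adjusted p = 0.017), and Lfng, a glycosyltransferase that modifies Notch receptors, was at 13.8, 17.1 and 17.4 CPM at E10.5, 8.98, 10.9 and 9.96 CPM at E11.5, and 17.1, 18.5 and 18.9 CPM at E12.5 (-0.78 ± 0.15, adjusted p = 0.0279). The pair differed in shape. Jag1 was almost level from E10.5 to E11.5 (log2 = -0.12, adjusted p = 0.608) and had the smallest gap of all called dips, whereas Lfng was lower than both neighbours. Jag1 and Lfng were chosen for mention after their values were seen.

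Markers of forebrain and eye tissue were mostly lower at E11.5. Of 14 forebrain and eye markers tested, 13 were lower at E11.5 than the average of the neighbours, 2 were called lower (0.562% of all genes tested were) and 2 were separated, with a median of -1.7. Omitting E10.5 replicate 1, 2 or 3 gave 4, 3 and 5 called lower, and removing the GC trend gave 4. When E11.5 replicate 3 or E12.5 replicate 3 was omitted 1 was called lower, and none was called on omitting E12.5 replicate 1 or either of the other E11.5 libraries. Rax, a homeobox gene of the eye field, was the called dip among them, with counts of 132, 25 and 50 at E10.5, 0, 0 and 1 at E11.5, and 2, 5 and 12 at E12.5 (adjusted p = 0.0334). Otx2 was separated but not called, at 26.7, 27.2 and 45.4 CPM at E10.5, 12.4, 13.6 and 14.1 CPM at E11.5, and 15.2, 15 and 16.5 CPM at E12.5 (adjusted p = 0.0691). The summed level of these 14 genes was 312, 271 and 422 CPM at E10.5, 93.2, 96.6 and 97.5 CPM at E11.5, and 148, 113 and 115 CPM at E12.5, so the E11.5 libraries were lowest for the list as a whole. Most of its members followed E10.5: the median E11.5 vs. E10.5 was -4.4 and the median E11.5 vs. E12.5 was -0.12. The part of forebrain or eye tissue in the dissected pieces was not tested.

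Fabp7, a fatty acid binding protein of glia, was at 8.97, 7.43 and 15 CPM at E10.5, 2.42, 3.46 and 1.95 CPM at E11.5, and 4.28, 3.88 and 6.14 CPM at E12.5 (-1.43 ± 0.29, adjusted p = 0.0346) and Stmn3, a stathmin of neurons, at 9.74 ± 3.07 CPM at E10.5, 4.25 ± 0.555 CPM at E11.5 and 8.8 ± 2.1 CPM at E12.5 (-1.12 ± 0.23, adjusted p = 0.0405). The call of Fabp7 was lost in 6 of 22 alternative fits and that of Stmn3 in 8. These genes were each the 1 called dip of their list, among 11 glial and pigment markers and 17 neuron markers. Over all genes tested 0.397% were called dips. Of the 17 neuron markers 13 were lower at E11.5 than the average of the neighbours, with a median of -0.2. Their summed level was 348–364 CPM at E11.5, within the 313–373 CPM of E10.5 and below the 474–534 CPM of E12.5. Slc1a2, a glutamate transporter, was at 1.96, 2.32 and 3.84 CPM at E10.5, 0.538, 1.11 and 0.211 CPM at E11.5, and 2.42, 2.7 and 2.8 CPM at E12.5 (-2.08 ± 0.42, adjusted p = 0.0346), and Grik3, a kainate receptor subunit, at 2.79, 3.66 and 2.35 CPM at E10.5, 0.484, 0.962 and 0.527 CPM at E11.5, and 4, 3.94 and 1.07 CPM at E12.5 (-2.15 ± 0.45, adjusted p = 0.0379). The lowest neighbour of Grik3, E12.5 replicate 3, was barely above the highest E11.5 library. B3gat1, which makes the HNK-1 carbohydrate of neural crest and nerve cells, was at 4.87, 3.95 and 4.09 CPM at E10.5, 1.24, 1.15 and 1 CPM at E11.5, and 5.41, 6.04 and 3.34 CPM at E12.5 (-2.02 ± 0.26, adjusted p = 0.00384), with a clear space between E11.5 and all neighbours. Sst, the somatostatin precursor, had counts of 14, 9 and 12 at E10.5, 0, 6 and 1 at E11.5, and 89, 61 and 130 at E12.5, and Hmx1, a homeobox gene of the eye and ear region, was at 14.4, 5.46 and 4.46 CPM at E10.5, 0.484, 0.529 and 0.474 CPM at E11.5, and 2.25, 1.62 and 3.46 CPM at E12.5 (-3.14 ± 0.47, adjusted p = 0.00864). Sst came back mainly at E12.5, while Hmx1 was highest at E10.5, where replicate 1 exceeded the other libraries.

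Enzymes of metabolism and parts of the ribosome were also among the dips. Ckb, the brain-type creatine kinase, was at 187, 158 and 217 CPM at E10.5, 51, 58 and 59.9 CPM at E11.5, and 83.1, 74.7 and 90.6 CPM at E12.5 (-1.15 ± 0.14, adjusted p = 0.00198), highest at E10.5 in each library. Aldh1a1, which makes retinoic acid and is known from the retina, was at 16.8, 4.82 and 20.1 CPM at E10.5, 0.484, 0.192 and 0.211 CPM at E11.5, and 0.902, 0.917 and 0.656 CPM at E12.5 (-3.51 ± 0.56, adjusted p = 0.0122). It hardly returned at E12.5 (E11.5 vs. E12.5 adjusted p = 0.205), and it was the 1 called dip of 15 retinoic acid genes, of which 1 other was called higher and overlapped a neighbour, with a list median of 0.18. Zim1, an imprinted zinc finger gene, was at 15.7 ± 2.84 CPM at E10.5, 6.92 ± 1.23 CPM at E11.5 and 10.3 ± 1.46 CPM at E12.5 (-0.88 ± 0.19, adjusted p = 0.0432). It was the 1 called member of 22 imprinted genes tested, beside 1.18% of all genes tested. Its call was lost in 9 of 22 alternative fits, 7 of them with a library left out. Of 80 cytosolic ribosomal protein genes, 79 were lower at E11.5 than the average of the neighbours, with a median of -0.38. With the length trend removed 76 were lower and the median was -0.27. Of the 80, 5 were separated below and 2 were called dips. Over all genes tested 1.92% were separated below and 0.397% were called dips. Rps27a was at 582, 702 and 860 CPM at E10.5, 216, 335 and 256 CPM at E11.5, and 724, 352 and 927 CPM at E12.5 (-1.36 ± 0.27, adjusted p = 0.0334), and Rpl30 at 334, 319 and 452 CPM at E10.5, 133, 190 and 190 CPM at E11.5, and 265, 231 and 238 CPM at E12.5 (-0.81 ± 0.16, adjusted p = 0.0334). For Rps27a the highest E11.5 library, replicate 2, lay just under E12.5 replicate 2. Both share exon sequence with other annotated genes, 8.11% and 24.8% of their exon length, and ribosomal protein genes have processed copies elsewhere in the genome, so their counts are uncertain. The summed ribosomal level of E12.5 replicate 2 was 41900 CPM, within the E11.5 range of 40500–47900. Without that library 40 of 81 were separated below and 9 were called lower. Without E12.5 replicate 3, whose sum was 72700 CPM, none was called and 76 of 80 were lower. None was called without E12.5 replicate 1 or any 1 of the E11.5 libraries either.

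Called peaks had a lower GC content than called dips, a difference that was not tested. The median GC content of the longest transcript was 45.4% for peaks (quartiles 42.2 and 50.8) and 53.9% for dips (48.8 and 56.9), with 49.7% over all genes tested (44.8 and 54.5). Across the genes tested the contrast had a Spearman correlation of -0.15 with GC content and 0.28 with gene length, and these genes share the same 9 libraries. With each library's trend with GC content removed, 44 of the 49 peaks and 59 of the 65 dips were still called. The median GC content of all that were then called was 49.7% for 62 peaks and 52% for 75 dips. With the trend with length removed, 45 and 64 were still called. All 65 dips and 43 of the 49 peaks were protein-coding, beside 86.3% of the genes tested, and 5 peaks were lincRNAs. More than 10% of the exon length was shared with another gene in 5 peaks and 11 dips, among them Htr1b, Bdnf, Sox21, Shh, Hmx1, Ctgf, Rax and Rpl30. With every library thinned to the smallest total, 45 of the 49 peaks and 58 of the 65 dips were still called. The part of base composition and depth in these calls was not tested beyond this.

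RefSeq promoters were matched for 33 of the 49 called peaks, 48 of the 65 called dips and 11547 of the 16375 genes tested, with median GC contents of 55.7%, 62% and 61%. The GC box GGGCGG was found on either strand in 45.5% of peak promoters, 56.2% of dip promoters and 64.3% of all. TGANTCA was found in 9.09% of peak promoters (3 genes) and 12.5% of dip promoters (6 genes), against 4.51% of all. The E-box CACGTG was in 12.1% and 8.33%, against 9.86%. AGATAA was in 6.06% and 4.17%, against 6.14%, and TATAAA in 3.03% and 6.25%, against 6.88%. CACGTG reads the same on both strands, and none of these differences was tested.

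Of 39 genes tested that are known for their part in lip fusion, 31 were higher at E11.5 than the average of the neighbours. The list median was 0.15. Of the 39, 4 were separated above and 1 was separated below, beside 1.8% and 1.92% of all genes tested. The called members were the peak Rspo2 and the dip Shh, beside 0.299% and 0.397% of all genes tested. Snai2 was called higher too, but its libraries overlapped a neighbour. Tbx22, a T-box gene of palate mesenchyme, was separated at 17.9, 9.81 and 4.27 CPM at E10.5, 23.9, 26.5 and 27.5 CPM at E11.5, and 13.6, 15.9 and 11.6 CPM at E12.5 (adjusted p = 0.103). Msx2 was separated at 60.5 ± 5 CPM at E10.5, 75 ± 5.1 CPM at E11.5 and 49.9 ± 4.61 CPM at E12.5 (adjusted p = 0.0867) and Sox11 at 855 ± 19.9 CPM at E10.5, 939 ± 19.6 CPM at E11.5 and 757 ± 56.5 CPM at E12.5 (adjusted p = 0.447). None of the 3 passed the contrast. Of the 82 genes named in the study's own account that were tested, 12 were called by the contrast (1.18% of all genes tested were), 9 higher and 3 lower. Of these, 4 were members: the peak Cdkn2b and the dips Shh, Foxa1 and Fgf18. The other 8 were higher at E11.5 than the average of the neighbours and overlapped a neighbour. That list was chosen by the study on these samples and is not independent of them. In 23 of the 40 gene lists no member was called in either direction, among them mitosis (20 genes), S phase (20), heat shock (13), endothelial cells (17) and replication-dependent histones (40). Since 1.18% of all genes tested were called, lists this short can hold none without standing apart from other genes.

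The calls depended on single libraries. Leaving out E11.5 replicate 1, 2 or 3 left 8, 13 and 8 called peaks and 12, 20 and 9 called dips. Leaving out E12.5 replicate 1 left 13 and 20, and E12.5 replicate 3 left 25 and 44. E10.5 replicate 3 and E12.5 replicate 2 acted the other way: without the first there were 111 peaks and 107 dips, and without the second 116 and 101. In 24 of the 49 peaks and 40 of the 65 dips, E10.5 replicate 3 was the E10.5 library farthest from E11.5. That share was not computed over all genes tested, so these counts do not set the members apart. All 49 and 65 remained called without E10.5 replicate 3. In all 9 such fits 7 peaks were called, namely Hemgn, Lix1, Irx6, Htr1b, Calb2, Pmaip1 and the lincRNA Gm34184, and 9 dips, namely Sox21, Spon1, Sp9, Vgll2, Pou3f1, Ckb, Lmo1, B3gat1 and Foxa1. Epha8 was lost without E11.5 replicate 1 alone. Mpped2, Pgm2l1, Olfr231, Shh, Fgf18, Sst and Hmx1 each lost the call when either E11.5 replicate 1 or E11.5 replicate 3 was left out. In 5 or more of the 9 fits 20 peaks and 32 dips were called.

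**Figure D5:**
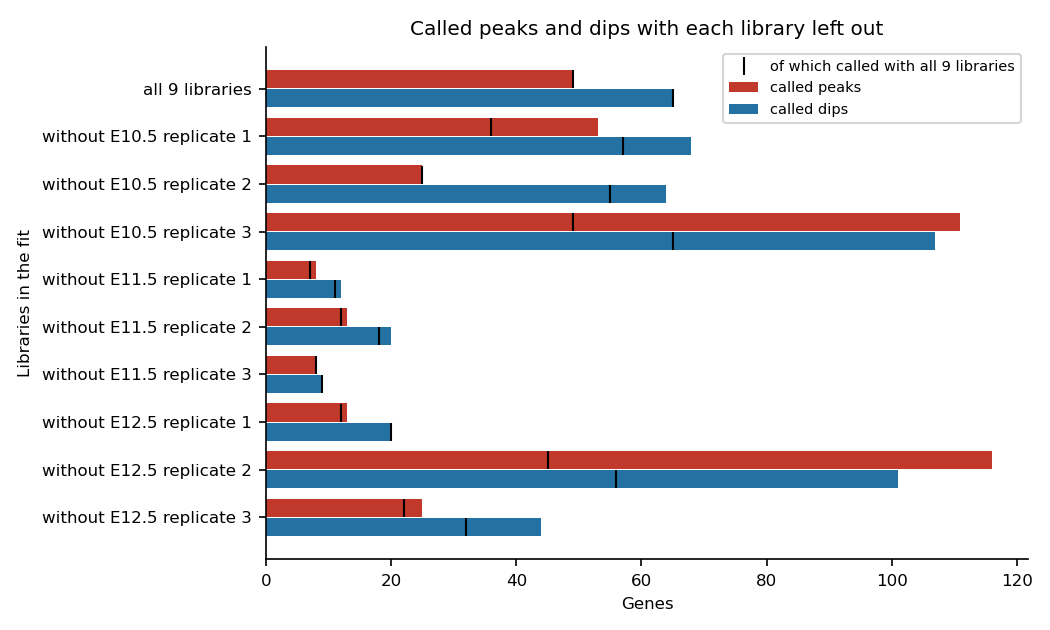
Number of called peaks (red) and dips (blue) with all 9 libraries and with each library left out. Black marks give how many of them were also called with all 9. Without an E11.5 library at most 13 peaks and 20 dips were called, while without E10.5 replicate 3 or E12.5 replicate 2 there were over 100 of each.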

How the data were processed

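RNA-seq of lambdoidal junction tissue was analysed in 9 libraries, 3 per stage, from 1 deposited table of 54532 genes. The authors mapped the reads to mm10 with HISAT2 2.0.5, counted them per gene with featureCounts and deposited whole-number read counts without normalization, which were used here. The table also holds FPKM values and the study's own tests of each pair of stages, none of which was used. Whether reads were counted by strand is not given in the sources used here.

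Stages were taken from the labels. Of 30199 genes with at least 1 count, 16375 passed filterByExpr. These were fitted over all 9 libraries with TMM normalization in edgeR 4.0.16 (R 4.3.3), and 1 contrast of E11.5 with the average of E10.5 and E12.5 was tested with edgeR's quasi-likelihood test and Benjamini-Hochberg adjustment. E11.5 vs. E10.5, E11.5 vs. E12.5 and E12.5 vs. E10.5 came from the same fit. Counting genes that were not tested, 350 lay above and 431 below, and 55 and 116 of these had failed the filter. Each ± after a log2 difference is an SE, the absolute log2 fold change over the square root of F, and each ± after CPM is an SD over 3 libraries. The gap is the smaller of the log2 differences from each neighbour (prior count 2). Up to 3 counts in every library of a stage was the limit of detection, which covers counting error only.

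The genes named are the 12 peaks and 12 dips with the smallest p and the 8 and 8 with the largest gap (protein-coding, at least 1 CPM in the highest stage), called members of the gene lists with examples, and called genes that the study names. The values of 2 called genes are not reported here, while counts over all genes and lists include them. Members, lists and tests were chosen with earlier results of these data known. The text says where a gene was picked after its values were seen; Gm34184, Cp, Epha7, Pou3f4, Foxp2 and Etv1 were too. The alternatives were DESeq2 1.42.0, limma-voom 3.58.1, robust dispersion, other normalizations and filters, a replicate block, thinning to equal depth, removal of GC or length trends, stricter thresholds and leaving out each library. The contrast was tested on simulated data. Gene coordinates are those deposited and GC content is from GENCODE vM21. No p-value here measures more than the spread between these pools.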

Additional observations from a re-analysis of the deposited data

How the results depend on the processing

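The 49 named genes kept their direction in all 1064 values under alternatives. These genes were chosen as called peaks or dips, and that rule already fixes the side on which they lie. A reversal was therefore hardly possible, and the kept direction is no separate evidence. Of the 1064 values, 903 were still called, 144 lost the call with a library left out and 17 under another alternative. Other normalizations, robust dispersion, limma-voom, protein-coding genes alone, omission of hemoglobin genes and thinning gave 47–50 called peaks and 47–73 called dips. DESeq2 gave 517 called genes, 91 peaks and 129 dips, with 42 and 71 past both neighbours. Testing all genes with at least 1 count gave 700 called, 109 peaks and 125 dips, with 50 and 87 past both neighbours, and requiring at least 10 counts in every library gave 111 called, 28 peaks and 39 dips, with 17 peaks past both neighbours. At an adjusted p of at most 0.01 there were 37 called genes, 11 peaks and 14 dips, with 4 and 11 past both. With a log2 difference of at least 1 there were 128 called genes and 28 peaks, with 17 peaks past both. Removing the GC trend gave 43 peaks past both neighbours. The cause of these shifts was not tested, apart from the number of genes tested under each filter (30199 and 13799). Removal of the length trend, added after seeing the data, gave 57 peaks and 84 dips.

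With single libraries left out, called genes ranged from 27 to 437, called peaks from 8 to 116, called dips from 9 to 107, peaks past both neighbours from 5 to 67 and dips past both from 11 to 83. The extremes came without E11.5 replicate 3 or 1 and without E10.5 replicate 3 or E12.5 replicate 2. With the replicate block there were 205 called genes, 47 peaks and 62 dips, with 24 and 44 past both neighbours, and 39 peaks and 58 dips were shared with the fit without the block. Correlations of same-numbered libraries ran from -0.15 to 0.22. Between E10.5 and E12.5 they were 0.07 to 0.22, beside -0.22 to 0.15 for libraries of different number. In pairs with E11.5 they were -0.15 to 0.074, beside -0.18 to 0.22. The numbers thus do not show a pairing across all 3 stages, and a pairing of E10.5 with E12.5 was not tested. Depth limits the size of the differences where a stage lay at 3 counts or fewer in each library, as in 5 called peaks and 3 called dips, and 55 and 116 genes that lay above or below the other stages had too few counts to be tested.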

Other observations

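In some gene groups most members lay on the same side of the average of the neighbours at E11.5, without called members. Of 70 nuclear-encoded genes of oxidative phosphorylation tested, 66 were lower at E11.5 than the average of the neighbours, with a median log2 difference of -0.26. Of the 70, 3 were separated below and none was called, beside 1.92% and 1.18% of all genes tested. With the length trend removed 56 were lower and the median was -0.15, and without E12.5 replicate 2 there were 70 of 71 lower and 3 called. Their summed level was 6860 CPM in E12.5 replicate 2 and 10700 CPM in E12.5 replicate 3, on either side of the E11.5 range of 6890–7900 CPM. Of 25 genes of cholesterol synthesis 24 were higher at E11.5 than the average of the neighbours, with a median of 0.20. Of 20 genes of mitosis 19 were, with a median of 0.12. The median E11.5 vs. E10.5 was 0.028 for cholesterol synthesis and -0.14 for mitosis. The median E11.5 vs. E12.5 was 0.35 and 0.44, so neither list as a whole peaked at E11.5. Neither list had a called member, and their summed levels placed E11.5 with E10.5 and above E12.5 (mitosis 4970–5320 CPM at E11.5 and 3680–3920 CPM at E12.5, cholesterol synthesis 2670–2780 CPM and 1950–2160 CPM). The edgeR test gave 1959 genes with an unadjusted p below 0.05, of which 218 were separated peaks and 277 separated dips.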
